A study of Mus musculus with 4 samples.

Results

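Ependymal nuclei are nuclei of the ciliated cells that line the brain ventricles, and 65 of them were found among 30939 kept nuclei from tissue punched out of the mouse paraventricular hypothalamus (PVN). They were chosen by measured values. A nucleus was taken as ependymal when it held at least 8 unique molecular identifiers (UMIs, each a counted RNA molecule) from at least 3 of the genes Dnah12, Dnah6, Spag17, Hydin, Tmem212, Ccdc153 and Foxj1, had under 1% of its UMIs in the neuronal genes Meg3, Snhg11 and Syt1, and had no UMI of the tanycyte gene Rax. Kept nuclei had at least 500 detected genes and at most 5% of UMIs from mitochondrial genes. The levels of the 7 genes, of the 3 neuronal genes and of Rax are therefore descriptions of the choice, as is any contrast of these nuclei with the rest.

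The study set day against night by single-nucleus RNA sequencing of micropunched PVN tissue. Per the labels the mice were male C57BL/6 animals aged 10 weeks (10 to 12 weeks in the series text), without any named treatment or engineered allele, and each library pooled the tissue of 5 PVNs. There were 2 libraries at zeitgeber time 8 (ZT8, 8 h after lights on) and 2 at ZT20, in the dark. The labels do not say that the libraries of 1 time came from separate days or litters, so every p-value measures only how far these libraries differ among themselves, which may be technical.

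The libraries held 6453 and 6923 barcodes at ZT8 and 8320 and 9413 at ZT20, with 57970649 to 69223344 UMIs. Kept nuclei had medians of 4793 and 5596 UMIs in the ZT8 libraries and of 3743 and 2526 in the ZT20 libraries. The libraries of the 2 times did not hold the same surroundings. Tanycytes, the ventricle-lining glia that carry Rax, were absent by their rule at ZT8 (0 and 0 nuclei) and present in both ZT20 libraries (13 and 13), while oligodendrocytes numbered 1026 and 1109 in the former and 678 and 598 in the latter. Time of day and this difference in the tissue captured cannot be told apart in these libraries. Pairs of libraries shared 10 to 25 barcodes among kept nuclei and 0 among ependymal nuclei.

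Ependymal cells carry bundles of motile cilia that move cerebrospinal fluid along the ventricle wall. The axoneme of such a cilium is a ring of doublet microtubules around a central pair; outer and inner dynein arms make the doublets slide, radial spokes and the nexin-dynein regulatory complex control the arms, and the whole is built by intraflagellar transport under a programme led by FOXJ1 and the RFX factors. In the wall of the third ventricle beside the PVN, ependymal cells give way to tanycytes towards the floor of the ventricle.

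The ZT8 libraries gave 10 and 13 ependymal nuclei and the ZT20 libraries 23 and 19. Their summed UMIs were 66331 and 133866 at ZT8 and 115341 and 113113 at ZT20. A single nucleus supplied 27.0% and 29.0% of these UMIs at ZT8, and 8.89% and 17.6% at ZT20. The nuclei ranged from 1488 to 38832 UMIs, with medians of 4590 and 5774 at ZT8 and 4472 and 4248 at ZT20. Depth per ependymal nucleus was thus alike in 3 libraries and higher in ZT8 replicate 2.

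At the edge of the rule, 7, 4 and 3 nuclei with 5, 6 and 7 UMIs of the 7 genes stayed outside, and 2, 2, 1 and 2 nuclei with 8, 9, 10 and 11 UMIs came inside. All 7 nuclei just inside came from ZT20 libraries. Before the neuronal and Rax conditions 82 nuclei qualified. Of these, 12 had 1% or more neuronal UMIs, and 5 of the others carried Rax. The highest neuronal share inside was 0.584% and the lowest outside 1.13%.

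The label was also set beside markers that the rule did not use. All 12 further ependymal markers on a second list (among them Ak7, Rarres2, Tppp3 and Dynlrb2) had UMIs, and all 12 were higher than in the remaining nuclei in all 4 libraries. Over all 12673 genes with 3 or more ependymal UMIs, 21.6% were higher in all 4 libraries and 3.95% were at least 10-fold higher in all 4. The second list summed to 3211 and 2809 counts per 1000000 UMIs of the summed class (CPM) at ZT8 and 2636 and 2254 at ZT20, against 59.8 to 94.7 in the rest and 146 to 197 in astrocytes. Tanycytes of the ZT20 libraries held 440 and 564 CPM of it.

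Marker lists of other cell types were detected at different levels. Neuronal markers summed to 1733 to 2352 CPM, where the rest of the nuclei had 17927 to 18152. That list includes Meg3, Snhg11 and Syt1, which the rule limits, so its low sum is partly set by the choice. Astrocyte markers summed to 467 and 934 CPM at ZT8 and 979.7 and 999 at ZT20, above the 292 to 310 of the rest and below the 4314 to 4778 of astrocytes. Oligodendrocyte markers stood at 2397 CPM in ZT8 replicate 1 and at 575, 884 and 981 in the other libraries, against 1118 to 1623 in the rest. Choroid plexus genes Ttr, Kl, Slc4a5, Kcne2 and Kcnj13 had 0 UMIs; the other 3 of the 8 summed to 196 and 149 CPM at ZT8 and 113 and 115 at ZT20, above the 16.2 to 20.6 of the whole list in the rest. Microglia markers had 166, 329, 191 and 274 CPM against 147 to 173 in the rest, and oligodendrocyte precursor markers 0, 202, 26.0 and 327 against 98.1 to 127.

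Endothelial markers had 15.1 and 7.47 CPM at ZT8 and 52.0 and 88.4 at ZT20 with Pecam1 and Ly6c1 at 0, against 49.1 to 63.6 in the rest. Mural markers had 7.47 to 45.2 CPM with Pdgfrb and Kcnj8 at 0 (17.2 to 68.7 in the rest), and fibroblast markers 14.9 to 44.2 with Col1a1 and Lum at 0 (14.9 to 22.4 in the rest). Of the 8 tanycyte markers 6 were detected (Rax, by the rule, and Adm were at 0), with 15.1 and 74.7 CPM at ZT8 and 598 and 654 at ZT20, against 34.3 to 60.0 in the rest. The libraries of the 2 times did not overlap for the astrocyte, endothelial and tanycyte lists, which were higher at ZT20, and for the choroid plexus list, which was lower. Such separation is common: of all genes with 3 or more UMIs, 20.2% were higher in both ZT20 libraries and 16.6% lower. The endothelial and choroid plexus sums rest on few UMIs, and 0 of 6 and 1 of 8 of their genes held enough to be tested for time. The tanycyte list differed by the most.

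Among the genes of the rule, Dnah12, an inner-arm dynein heavy chain (GRCm38/mm10, chr14:26693274-26891703), had 3317 and 2883 CPM at ZT8 and 2029 and 1892 at ZT20. It was detected in 64 of 65 nuclei, or 98.5%, against 0.764% of astrocytes and 0.410% of oligodendrocytes, whose median depths were 4620, 4135 and 3059 UMIs. After every nucleus was thinned to 2000 UMIs, leaving out 2, 31 and 431 shallower nuclei, the shares were 93.7%, 0.466% and 0.201%. Foxj1, the transcription factor that switches on motile ciliogenesis, had few UMIs (5 and 6 in the ZT8 libraries, 12 in each ZT20 library) and was detected in 32.3% of the nuclei, against 1.32% of astrocytes and 2.70% of oligodendrocytes.

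Outside the rule, genes were ranked by the lowest of their 4 library ratios to the rest, with 10 CPM added to each level. Cfap299, a cilium-associated gene (chr5:98329304-98802047), came first. It had 3347 and 3451 CPM at ZT8 and 3008 and 2669.9 at ZT20, where the remaining nuclei had 4.67 to 7.65, and 63 ependymal nuclei carried it. All 4 libraries held it at similar levels. Wdr49, which encodes a WD-repeat protein, had 1417 and 1352 CPM at ZT8 and 997 and 1220.0 at ZT20. Spag16, a protein of the central pair (chr1:69826970-70725132), had 2442 and 2383 CPM at ZT8 and 2254 and 1927 at ZT20, against 17.9 to 23.9 in the rest. The other leading genes by this rank were the dynein heavy chains Dnah3 and Dnah11, the adenylate kinases Ak7 and Ak9, the central-apparatus gene Spef2, and Lrrc36, Rgs22, Ccdc170, C230072F16Rik, Unc5cl, Ccdc146, 2010001K21Rik and 3300002A11Rik.

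Genes of every structural part of the axoneme were detected. Over 7 lists with 83 genes outside the rule, 82 had UMIs, 77 were higher than in the rest in all 4 libraries and 61 at least 10-fold higher in all 4; the background shares are the 21.6% and 3.95% given above. Together these genes supplied 35232 and 35842 CPM at ZT8 and 29989 and 27963 at ZT20, against 942 to 1174 in the rest of the nuclei. The sum was lower in both ZT20 libraries than in both ZT8 libraries.

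Among outer dynein arm genes, 10 of 11 were at least 10-fold over the rest in all 4 libraries. The heavy chain Dnah9 had 1327 and 1404 CPM at ZT8 and 1205 and 1238 at ZT20. Dnah11, another heavy chain, had 1085 and 1269.9 CPM at ZT8 and 988 and 1096 at ZT20. The light chain Dnal1 was the exception to the 10-fold excess, at 277 to 396 CPM against 55.7 to 59.5 in the rest. Inner-arm genes reached the 10-fold excess in 8 of 10. Dnah10 had 709 and 702 CPM at ZT8 and 503 and 416 at ZT20, and the light chain Dnali1 had 362 and 261 CPM at ZT8 and 173 and 141 at ZT20. Dnah7b was present in all libraries but also at 49.6 to 56.4 CPM in the rest. Dnah7a, Dnah7b and Dnah7c are close paralogs on chromosome 1, so their separate values are uncertain.

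In the central apparatus 10 of 11 genes showed the 10-fold excess, and the exception, Spag6, had 2 UMIs in all while its paralog Spag6l had 180. The paralogs share sequence, so the division of reads between them is uncertain. Cfap54 had 1749 and 1972 CPM at ZT8 and 1499.9 and 1494 at ZT20. Radial spoke genes showed it in 9 of 13, with Cfap61 at 1402 and 1599 CPM at ZT8 and 832 and 1008 at ZT20. The regulatory complex showed it in 8 of 12, with Fbxl13 at 844 and 739.5 CPM at ZT8 and 477 and 442 at ZT20. Proteins inside the doublets showed it in 12 of 16, with Cfap44 at 1462 and 1509 CPM at ZT8 and 1257 and 999 at ZT20. Tekt2, a tektin filament gene, was an exception there with 1 UMI in all. Of 10 cytoplasmic factors that assemble dynein arms, 4 showed it. Dnaaf3 had 181 and 202 CPM at ZT8 and 173 and 203 at ZT20, and Pih1d3 had 0 UMIs, which allows up to 3 UMIs in each summed library, for counting error only.

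**Figure D1:**
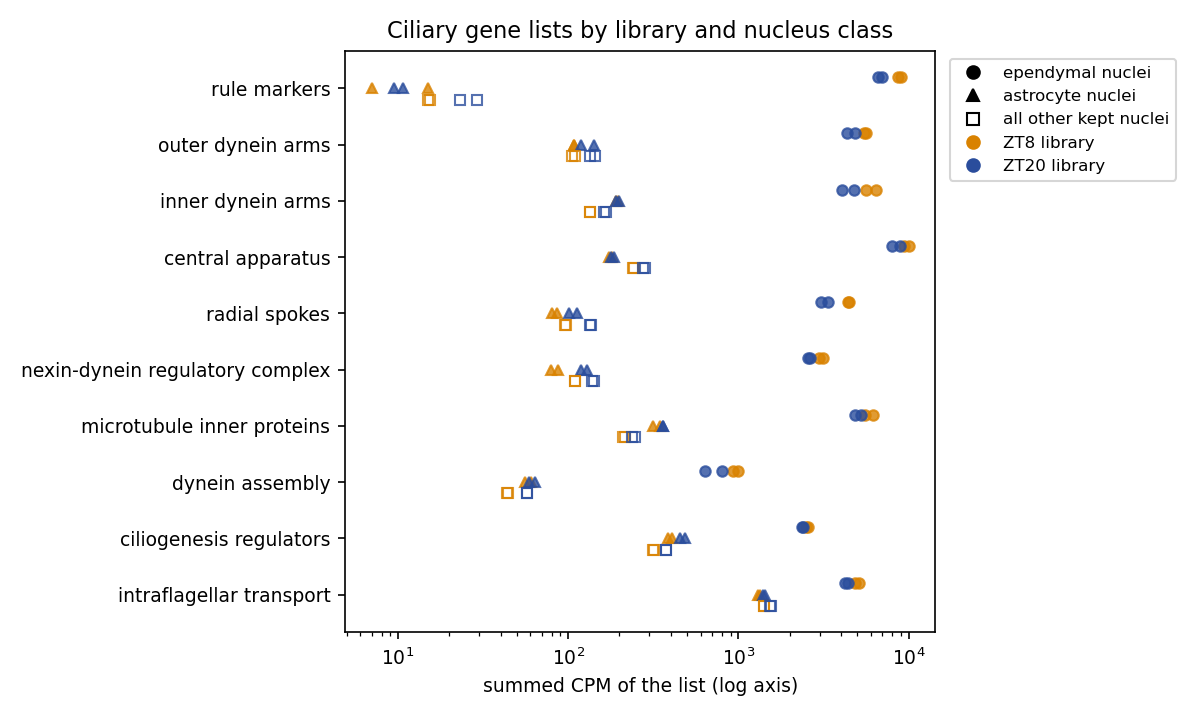
Summed CPM of each ciliary gene list (horizontal log axis) in ependymal nuclei (filled circles), astrocytes (triangles) and all other kept nuclei (open squares), 1 mark per library, orange for ZT8 and blue for ZT20. The axonemal lists lie apart from the other classes shown by at least an order of magnitude, and the intraflagellar transport list, at 4226 to 5111 CPM against 1409.8 to 1552 in the rest, lies closer. Classes not drawn come nearer. Tanycytes held 8751 and 7605 CPM of all axonemal lists together, against 27963 to 35842 in ependymal nuclei. Oligodendrocytes held 884 to 913 CPM of the list of microtubule inner proteins, against 4809 to 6163.

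Intraflagellar transport genes, which every ciliated cell uses, differed from the axonemal lists in size of excess: 23 of 29 were higher than the rest in all 4 libraries and 0 were 10-fold higher. Ift88 had 603 and 613 CPM at ZT8 and 407 and 256 at ZT20, against 66.3 to 69.7 in the rest. The retrograde motor gene Dync2h1 had 709 and 493 CPM at ZT8 and 642 and 698 at ZT20. Planar polarity genes, which align cilia across the tissue, were higher than the rest in 5 of 12. Celsr1 was the member with a 10-fold excess, at 211 and 134 CPM at ZT8 and 86.7 and 70.7 at ZT20 against 0.927 to 2.62. Prickle1 went the other way, at 15.1 to 61.9 CPM against 309 to 332.

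Of 14 transport and coupling genes, 5 were higher than the rest in all 4 libraries, against 21.6% of all genes. Their sum was 1462 and 1823 CPM at ZT8 and 2358 and 2289.8 at ZT20, against 1216 to 1266 in the rest and 11177 to 12858 in astrocytes. The water channel gene Aqp4 had 151 and 112 CPM at ZT8 and 217 and 194 at ZT20, against 18.2 to 22.1 in the rest and 289 to 321 in astrocytes. The choroid plexus water channel gene Aqp1 had 0 UMIs. Mitochondrially encoded genes were higher than in the rest for 13 of 13 genes in all 4 libraries. They summed to 9468 and 9054 CPM at ZT8 and 13482 and 8514 at ZT20, against 994 to 1796 in the rest and 1557 to 2177 in astrocytes.

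Regulators of multiciliated cells were present in part. Rfx3, a factor that binds X-box motifs of ciliary genes, had 979.9 and 859 CPM at ZT8 and 1040.4 and 1158 at ZT20, against 212 to 252 in the rest. It was found in 93.8% of ependymal nuclei, 71.4% of astrocytes and 36.3% of oligodendrocytes, so it is broadly detected. Rfx2, a second factor of the family, had 256 and 261 CPM at ZT8 and 329 and 283 at ZT20, against 3.48 to 8.31 in the rest. The p53-family factor gene Trp73 had 211 and 157 CPM at ZT8 and 139 and 97.2 at ZT20, where the rest stayed at 0.761 to 1.36. The genes that drive centriole amplification while a multiciliated cell forms were uneven. Mcidas and Cdc20b had 0 UMIs and Ccno had 1. Myb had 40 UMIs and Deup1 27, and Gmnc was detected as well.

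The promoters of the listed ciliary genes were searched for the RFX X-box, since the RFX genes were expressed here. RefSeq promoters (GRCm38.p6, 250 bases before to 50 after the start, both strands) were at hand for 83 of 102 genes of the rule, axonemal and regulator lists. The X-box was present in 16 of 83, or 19.3%, against 1.75% of 27025 genes with a promoter of the same length. Its half-site GTTGCC, which can lie within an X-box, was present in 48.2%, against 14.1% of all genes. Counted apart, of 25 intraflagellar transport genes with a promoter 2 held the X-box. The 7 stretches that follow are shown because their genes span the measured range, from 2252 CPM on average for Spag16 to 0 UMIs for Pih1d3. They read 5′ to 3′ on the gene's strand, capitals mark the X-box match, and the order is by mean level.
Spag16: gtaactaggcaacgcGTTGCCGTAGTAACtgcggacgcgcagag
Iqca: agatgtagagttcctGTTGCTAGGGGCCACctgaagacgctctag
Ccdc151: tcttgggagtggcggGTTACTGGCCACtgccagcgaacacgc
Dnaic2: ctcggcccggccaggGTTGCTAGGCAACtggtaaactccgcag
Tekt2: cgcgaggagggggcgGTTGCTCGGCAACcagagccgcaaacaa
Ccno: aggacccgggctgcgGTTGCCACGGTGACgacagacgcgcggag
Pih1d3: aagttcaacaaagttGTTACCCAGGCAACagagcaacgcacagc

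On GRCm38.p6 the stretches lie at chr1:69826852-69826895 on the plus strand (Spag16), chr1:90153455-90153499 on the minus strand (Iqca) and chr9:22002778-22002819 on the minus strand (Ccdc151). The others lie at chr11:114727371-114727413 on the plus strand (Dnaic2), chr4:126325690-126325732 on the minus strand (Tekt2), chr13:112987568-112987611 on the plus strand (Ccno) and chr1:31222765-31222808 on the plus strand (Pih1d3, RefSeq's Dnaaf6). The matches end 16 (Tekt2) to 205 (Ccno) bases before the start. Iqca, of the nexin-dynein regulatory complex, had 407 and 217 CPM at ZT8 and 303 and 345 at ZT20, while Ccdc151, an outer-arm docking gene, had 106, 97.1, 78.0 and 88.4 CPM and Dnaic2, an outer-arm intermediate chain, 45.2, 67.2, 69.4 and 53.0. Tekt2 and Ccno, with 1 UMI each, and Pih1d3, with 0, carried the motif as well. A match describes these letters and is no evidence of binding.

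The 65 nuclei varied among themselves. Axonemal genes outside the rule took a median of 3.14% of a nucleus's UMIs, from 0.665% to 5.17%, and a median of 48 of the 83 genes was detected, from 24 to 77. The ZT8 nuclei had a median of 3.80%. Adamts20, a secreted metalloprotease gene (chr15:94270163-94465418), was examined after its values had been seen. It had 2080.5 and 2301 CPM at ZT8 and 1535 and 1423 at ZT20, against 19.9 to 26.7 in the rest, and every ZT8 nucleus held at least 2 of its UMIs. At ZT20, 5 of 23 and 6 of 19 nuclei held none.

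These 11 ZT20 nuclei differed from the other 31 in several measures, given as description because the nuclei were divided after the fact. Their axonemal share had a median of 1.45% against 3.31%, their median of UMIs in the 7 rule genes was 12 against 36, and 5 of the 7 nuclei just inside the rule's threshold were among them. Their mitochondrial share had a median of 0.364% against 1.15%. Their median depth was 4472 UMIs against 4413. Their doublet scores had medians of 0.0682 and 0.0766, but 5 of the 11 scored below every one of the other 31. Col23a1, a tanycyte marker that encodes a transmembrane collagen, was present in 8 of the 11 and in 7 of the 31. In the summed nuclei without Adamts20, tanycyte markers reached 2501 and 2169 CPM, between the 77.3 and 85.1 of the other ZT20 ependymal nuclei and the 3367 and 4286 of tanycytes. Axonemal genes reached 19158 and 10522 CPM there, against 32955 and 34515 in the other ZT20 ependymal nuclei and 8751 and 7605 in tanycytes. The second list of ependymal markers reached 1331 and 777 CPM, against 2993 and 2809 in the other ZT20 ependymal nuclei and 440 and 564 in tanycytes. Col23a1 supplied most of the tanycyte marker sum in the nuclei without Adamts20, and all of it in the other ZT20 ependymal nuclei. Rax was 0 in both by the rule, and the tanycyte class was limited to nuclei with under 8 rule UMIs. The 11 nuclei thus met the ependymal rule and had intermediate sums of the tanycyte, axonemal and second ependymal lists, which for the tanycyte list rests mainly on Col23a1. They are kept in all results, and the main time comparisons are also given without them.

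**Figure D2:**
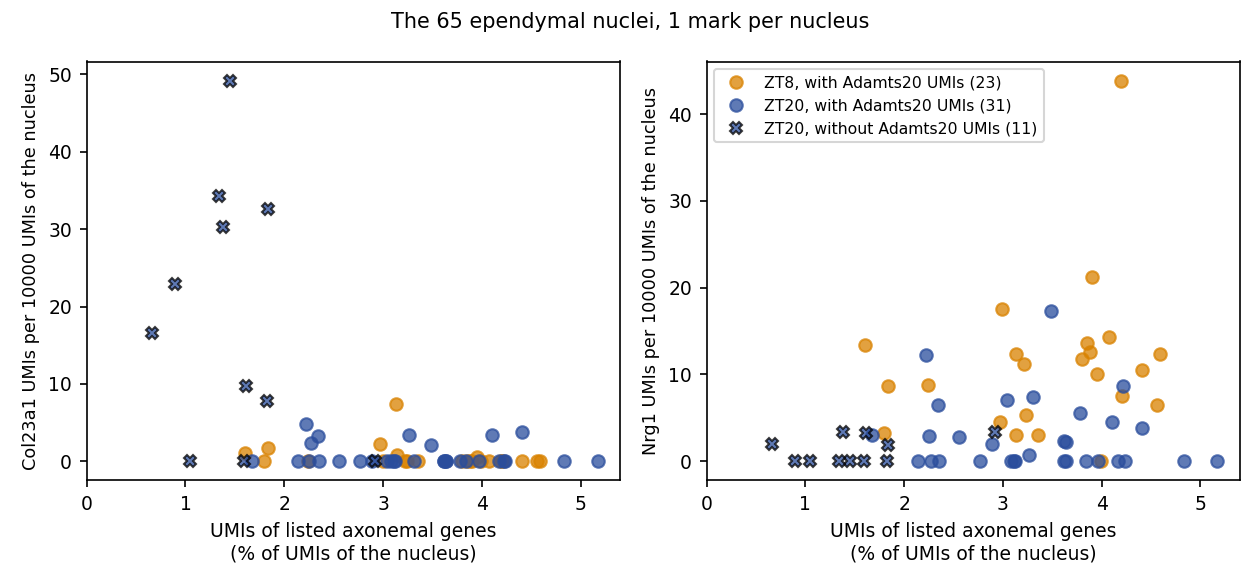
Each mark is 1 of the 65 ependymal nuclei, placed by the share of its UMIs from axonemal genes (horizontal, %) and by Col23a1 (left) or Nrg1 (right) UMIs per 10000, with crosses for the 11 ZT20 nuclei without Adamts20 UMIs. The 6 nuclei with 10 or more Col23a1 UMIs per 10000 are all crosses, and Nrg1 is present in 22 of 23 ZT8 nuclei and 21 of 42 ZT20 nuclei.

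The share of ependymal nuclei among kept nuclei was 0.157% (95% Clopper-Pearson interval 0.0752 to 0.288%) and 0.189% (0.100 to 0.322%) at ZT8, and 0.277% (0.176 to 0.416%) and 0.203% (0.122 to 0.317%) at ZT20. Intervals cover counting error only. Both ZT20 libraries lay above both ZT8 libraries, with means of 0.173 ± 0.0225% and 0.240 ± 0.0526% (SD, n = 2 libraries each). The difference of 0.0673 percentage points had an exact two-sided permutation p of 0.333, the smallest that 2 against 2 libraries allow. Without the nuclei lacking Adamts20 the difference was 0.00516 points (exact permutation p = 1). Under other rule, quality and doublet limits and another denominator it ran from 0.0138 points, under stricter quality limits (1000 genes, 1% mitochondrial UMIs), to 0.146 points, with at least 5 rule UMIs. The libraries of the times overlapped under the stricter quality limits, with at least 12 rule UMIs, and as a share of nuclei with few neuronal UMIs.

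Summed per library, 29 of 3090 genes tested (0.939%) passed an adjusted p of 0.05 between ZT20 and ZT8 in edgeR's quasi-likelihood test, 25 higher at ZT20 (0.809%) and 4 lower (0.129%). The median log2 change of all genes tested was 0.02. The test has 2 residual degrees of freedom. In data simulated for this comparison it called 80.4% of genes changed 4-fold and 9.78% of those changed 2-fold. The simulation gave every gene the same dispersion (spread beyond counting error) of 0.05. That value was not estimated from these libraries, so the shares need not hold for the real counts. The count depended on the nuclei taken: without the 11 nuclei lacking Adamts20 UMIs 1 gene passed, Nrg1, and with a threshold of 12 rule UMIs 0 passed, where 205 had an unadjusted p under 0.05.

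Nrg1 encodes neuregulin 1, a ligand of ErbB receptors (chr8:31814551-32884029, minus strand). It had 1236 and 926 CPM at ZT8 and 312 and 203 at ZT20, from 82, 124, 36 and 23 UMIs. Both ZT20 libraries lay far below both ZT8 libraries. Its log2 change was -2.01 ± 0.28 (SE, adjusted p = 0.000741), and -1.85 (adjusted p = 0.0216) without the nuclei lacking Adamts20. Over 17 alternative settings, 1 of which (the oligodendrocyte marker limit) removed no nucleus, the log2 change ranged from -2.41 to -1.68 and the adjusted p from 7.86e-07 to 0.192, with 14 past the threshold. The same test passed 9.84% of genes in astrocytes (5.13% higher at ZT20, 4.72% lower) and 48.9% in all other nuclei (24.9% higher, 24% lower), which are far more deeply counted. In astrocytes Nrg1 had 177 and 189 CPM at ZT8 and 75.6 and 132 at ZT20, which did not pass (log2 change -0.76 ± 0.33, adjusted p = 0.368). In all other nuclei it had 1111 and 1088 CPM at ZT8 and 1247 and 1248 at ZT20. The ZT20 minus ZT8 difference of ependymal nuclei was below that of all other nuclei by 2.10 ± 0.40 on the log2 scale (adjusted p = 0.00103), and its distance from that of astrocytes, -1.15 ± 0.38, did not pass (adjusted p = 0.392).

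The other 3 genes lower at ZT20 also had libraries that did not overlap. Nrbp2, a pseudokinase gene, had 814 and 769 CPM at ZT8 and 390.1 and 256 at ZT20 (log2 change -1.25 ± 0.27, adjusted p = 0.0251). It was lower at ZT20 in astrocytes as well, at 164, 152, 111 and 128 CPM (adjusted p = 0.0184). Fhit, a diadenosine triphosphate hydrolase gene, had 935 and 1046 CPM at ZT8 and 512 and 416 at ZT20 (-1.07 ± 0.24, adjusted p = 0.0284). Ptpn20, a tyrosine phosphatase gene hardly found elsewhere in these libraries, had 136 and 217 CPM at ZT8 and 26.0 and 35.4 at ZT20, from 9, 29, 3 and 4 UMIs (-2.51 ± 0.56, adjusted p = 0.0298). The remaining nuclei held it at 0.804 to 1.19 CPM. Without the nuclei lacking Adamts20 their log2 changes were -1.21, -1.08 and -2.14, and none passed (adjusted p of 0.406, 0.152 and 0.409).

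**Figure D3:**
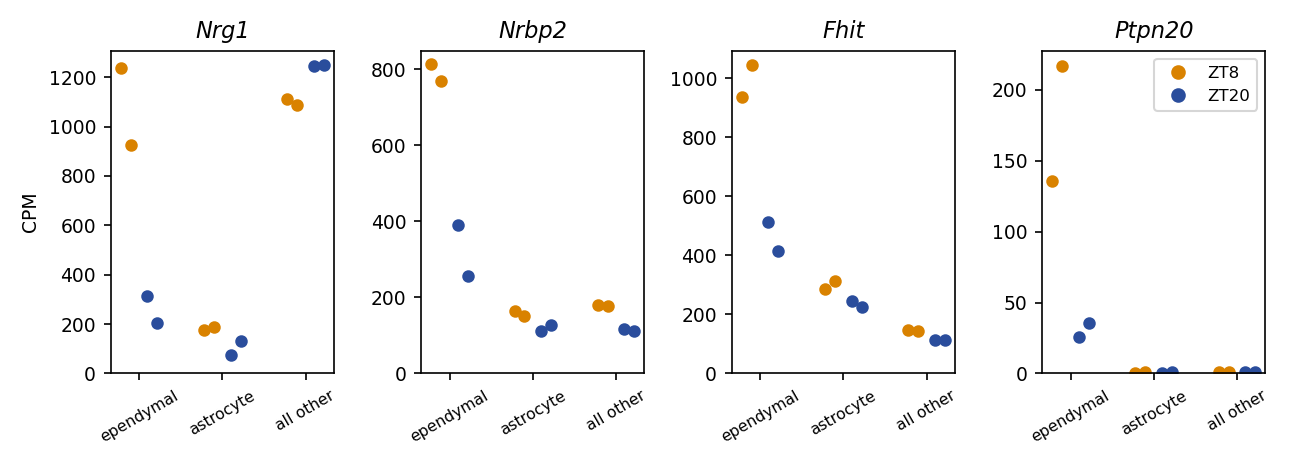
CPM per library (vertical, from 0) of the 4 genes lower at ZT20, in ependymal nuclei, astrocytes and all other nuclei, orange for ZT8 and blue for ZT20. In ependymal nuclei both ZT20 points lie below both ZT8 points for each gene, and Nrg1 in all other nuclei lies at 1088 to 1248 CPM at both times.

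Of the 25 genes higher at ZT20, 9 of the 10 with the smallest p are given, with Ctnna2 and Oxt chosen after their values were seen. Ank2, the adaptor ankyrin-B, had 482 and 441 CPM at ZT8 and 1369.8 and 1282 at ZT20 (log2 change 1.56 ± 0.22, adjusted p = 0.000741). Nuclei without Adamts20 held 4154 and 3302 CPM of it, the other ZT20 nuclei 607 and 523, and tanycytes 3898 and 4012. Without the former the change was 0.31 ± 0.26 (adjusted p = 0.855).

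Col23a1 (chr11:51289920-51583918) had 0 and 67.2 CPM at ZT8 and 529 and 495 at ZT20, from 0, 9, 61 and 56 UMIs (3.54 ± 0.50, adjusted p = 0.000741). The other ZT20 nuclei without the 11 had 77.3 and 85.1 CPM, close to ZT8 replicate 2. Efna5, the guidance ligand ephrin-A5, had 75.4 and 112 CPM at ZT8 and 459.5 and 469 at ZT20 (2.25 ± 0.37, adjusted p = 0.00329). Its level was 1492 and 1230.2 CPM in the nuclei without Adamts20 and 2169 and 2127 in tanycytes, and astrocytes held 93.1 to 117 at both times. Slit2, a ligand of Robo receptors, had 407 and 627 CPM at ZT8 and 1109.8 and 1618 at ZT20 (1.38 ± 0.25, adjusted p = 0.00782), with 3033 and 4318 in tanycytes. Without the nuclei lacking Adamts20 the changes were 0.86 ± 0.41 for Efna5 (adjusted p = 0.750) and 0.37 ± 0.27 for Slit2 (adjusted p = 0.818).

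Other genes of this group stood out less in the nuclei without Adamts20. Ppp2r2b, a regulatory subunit of protein phosphatase 2A, had 121 and 194 CPM at ZT8 and 546 and 689.6 at ZT20 (1.92 ± 0.33, adjusted p = 0.00366). Without the 11 nuclei it had 464 and 657 CPM at ZT20, and the change was 1.74 ± 0.35 (adjusted p = 0.152). Ctnna2 is an alpha-catenin of neural cells and had 136 and 336 CPM at ZT8 and 685 and 831 at ZT20 (1.58 ± 0.32, adjusted p = 0.0159), and 784 and 851 at ZT20 without them. Gria1, an AMPA receptor subunit, had 45.2 and 7.47 CPM at ZT8 and 165 and 239 at ZT20, from 3, 1, 19 and 27 UMIs (3.26 ± 0.64, adjusted p = 0.0140), and the change was 3.08 ± 0.86 (adjusted p = 0.417) without them. Apoe, the lipid carrier that astrocytes secrete, had 935 and 844 CPM at ZT8 and 1673 and 2467 at ZT20 (1.26 ± 0.21, adjusted p = 0.00366). It was also higher at ZT20 in astrocytes, at 3271, 3059.7, 4338 and 4396 CPM (0.52 ± 0.05, adjusted p = 5.40e-09). Its ependymal change was 0.86 ± 0.19 (adjusted p = 0.231) without the 11 nuclei.

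Nlgn1, a gene of synaptic adhesion, had 392 and 508 CPM at ZT8 and 928 and 1459 at ZT20 (1.40 ± 0.26, adjusted p = 0.00782; 1.03 ± 0.25 and 0.393 without the 11 nuclei). The kinase gene Mapk4 had 15.1 and 29.9 CPM at ZT8 and 217 and 194 at ZT20, from 1, 4, 25 and 22 UMIs (3.02 ± 0.56, adjusted p = 0.00782). Without the 11 nuclei it had no fitted value. It did not pass with the replicate block (3.02, adjusted p = 0.0571) or without the nucleus of most UMIs (2.71, adjusted p = 0.0708).

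Oxt, the oxytocin precursor of PVN neurons, was among the 25. It had 30.2 and 14.9 CPM at ZT8 and 165 and 194 at ZT20, with at most 3 UMIs in a nucleus. Astrocytes held 21.4, 29.9, 247 and 217 CPM and all other nuclei 10.2, 21.9, 213 and 208, and both were higher at ZT20 by the same test (adjusted p = 3.90e-16 and 0.0181). The ependymal change exceeded that of astrocytes by 0.03 ± 0.79 (adjusted p = 1).

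Across the 25 genes, which were picked for being higher at ZT20, both tanycyte sums lay above both ZT8 ependymal libraries for 25, against 23.3% of all genes tested. All astrocyte values did so for 19, against 23.4%, and the nuclei lacking Adamts20 lay above the other ZT20 nuclei for 21, against 18.3%. Of 21 with a fitted value without those nuclei, 19 had a smaller one. Without them 22 of the 25 had both ZT20 libraries above both ZT8 libraries, against 17.7% of all genes tested. The 25 were called from sums that hold these same nuclei, so the shares of all genes are given for scale and test nothing. Without every nucleus that held a tanycyte marker UMI, 7 genes passed, 4 of them higher at ZT20.

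**Figure D4:**
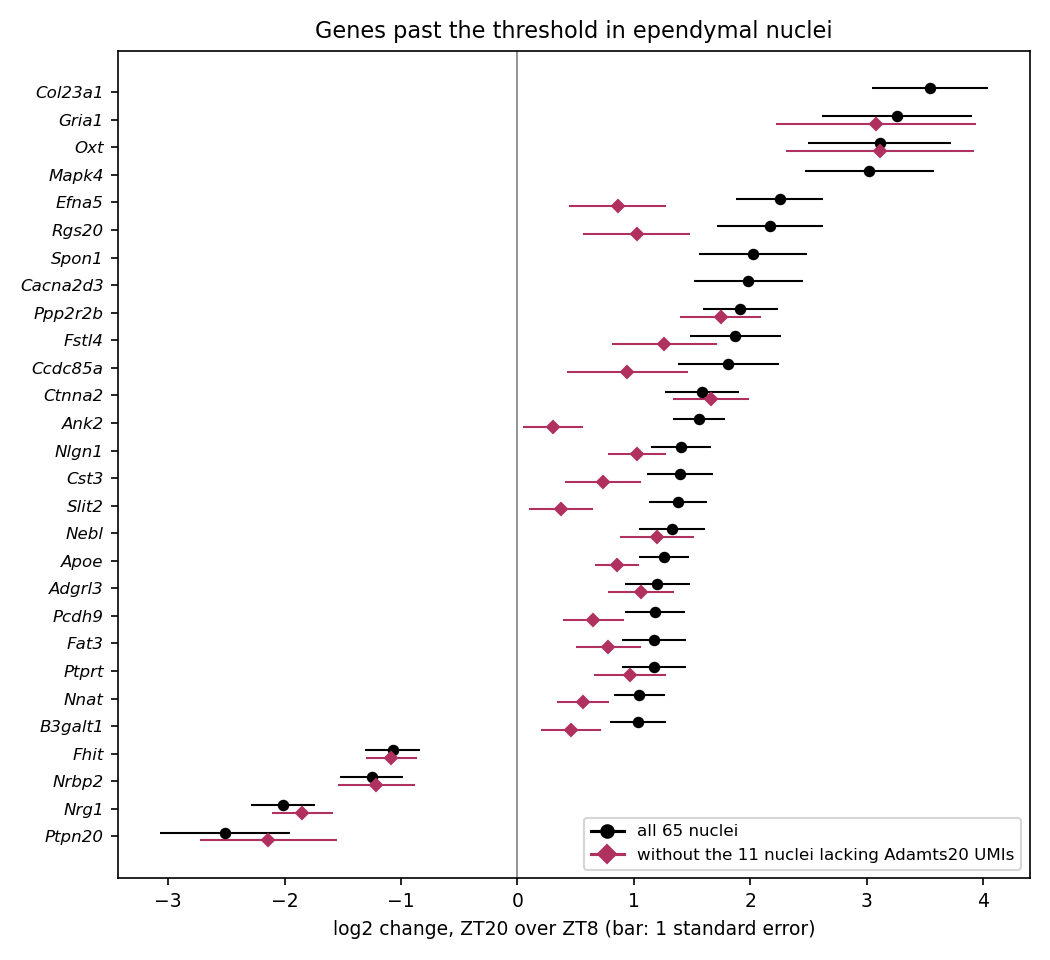
Log2 change ZT20 over ZT8 with 1 standard error (horizontal) of 28 of the 29 genes past the threshold, for all 65 nuclei (black circles) and without the 11 ZT20 nuclei lacking Adamts20 UMIs (red diamonds, where the gene could be fitted). Ank2 moves from 1.56 to 0.31, while Nrg1 lies at -2.01 and -1.85.

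Ciliary genes were lower at ZT20 more often than higher, though 0 of the axonemal genes passed the test; 3 passed with stricter quality limits and 1 with Rax nuclei kept. Of 63 tested, 51 had a negative log2 change, against 48.2% of all genes, and 37 had both ZT20 libraries below both ZT8 libraries, against 22.8% of all genes tested. Their median log2 change was -0.29. It stayed below 0 in all 17 alternative settings, from -0.60 with stricter quality limits to -0.11 without the nuclei lacking Adamts20, where 37 of 58 were negative. With DESeq2's size factors 51 of 63 were negative, against 47.6% of all genes. Without the nuclei lacking Adamts20 the summed axonemal level at ZT20 was 32955 and 34515 CPM, still below both ZT8 libraries.

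By part, the median was -0.25 for outer arms (9 of 9 negative), -0.41 for inner arms (9 of 10), -0.18 for the central apparatus (6 of 9), -0.36 for radial spokes (8 of 9), -0.13 for the regulatory complex (7 of 11) and -0.26 for proteins inside the doublets (10 of 13). Without the nuclei lacking Adamts20 the medians of the central apparatus and the regulatory complex were 0.06 and 0.10, and without nuclei holding a tanycyte marker UMI that of the central apparatus was 0.04, whereas the other 4 stayed below 0 in all 17 settings. Among single genes, Cfap61 had a log2 change of -0.68 ± 0.20 (adjusted p = 0.131), Fbxl13 -0.74 ± 0.24 (adjusted p = 0.199) and Dnah5 -0.68 ± 0.24 (adjusted p = 0.246). Rsph1, of the radial spokes, had 181 and 217 CPM at ZT8 and 95.4 and 61.9 at ZT20 (-1.32 ± 0.43, adjusted p = 0.187). The intraflagellar transport list had a median of -0.27, with 13 of 19 negative. Without ZT8 replicate 2 that median was 0.006, and without the nuclei lacking Adamts20 it was -0.12.

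Among clock genes, those of the PER repressors, the REV-ERB receptors and DBP had lower values at ZT20. However, of 24 listed clock genes 12 could be tested and 0 passed. Among the alternative settings Nr1d2 passed in 1, with Rax nuclei kept (adjusted p = 0.0375). Both ZT20 libraries lay below both ZT8 libraries for 11 of the 24 and above them for 5, against 16.6% and 20.2% of all genes with 3 or more UMIs. The 12 tested genes had a median log2 change of -1.02. With all 24 fitted the median was -0.49 with no filter and -0.50 in DESeq2, with 15 of 24 negative in each. The median of the genes fitted was negative in 16 of 17 alternative settings. It was -1.16 without the nuclei lacking Adamts20 (5 genes tested), and 0.07 with stricter quality limits, where 4 could be tested. Nr1d2 (REV-ERB beta, chr14:18204054-18239127) had 256 and 217 CPM at ZT8 and 78.0 and 61.9 at ZT20, from 17, 29, 9 and 7 UMIs (-1.68 ± 0.43, adjusted p = 0.0689). In astrocytes of the same libraries it had 192, 203, 115 and 117 CPM (-0.71 ± 0.09, adjusted p = 2.01e-06). The groups did not overlap in either class, and the difference between the classes did not pass (adjusted p = 0.956).

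Dbp, an output transcription factor of the clock, had 151 and 105 CPM at ZT8 and 17.3 and 17.7 at ZT20, from 10, 14, 2 and 2 UMIs (-2.70 ± 0.82, adjusted p = 0.146), with -1.75 ± 0.16 in astrocytes. Per1 had 121 and 105 CPM at ZT8 and 34.7 and 8.84 at ZT20 (-2.25 ± 0.84, adjusted p = 0.275). Nr1d1 (REV-ERB alpha) was under the count filter, with 9, 11, 2 and 1 UMIs, and had an adjusted p of 0.0974 when all genes were tested. These 3 were lower in both ZT20 libraries. So were Per2 with 151, 112, 43.3 and 79.6 CPM, Per3 with 226, 157, 86.7 and 88.4, Cry2 with 151, 164, 69.4 and 61.9, and Hlf with 106, 112, 34.7 and 35.4. Tef, at 196, 149, 165 and 88.4 CPM, overlapped between times.

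Clock and Npas2, activators of the loop, had higher values at ZT20 and did not pass. Clock had 30.2 and 59.8 CPM at ZT8 and 95.4 and 106 at ZT20 (1.05 ± 0.62, adjusted p = 0.562). Npas2 had 0 and 29.9 CPM at ZT8 and 95.4 and 88.4 at ZT20. Its ZT20 level was 403 and 194 CPM in nuclei lacking Adamts20 and at most 48.6 in the others. Arntl (BMAL1) was too low to test, with 3, 3, 7 and 8 UMIs. Rorb had 90.5 and 67.2 CPM at ZT8 and 208 and 168 at ZT20 (1.33 ± 0.44, adjusted p = 0.199), and Rora 2141, 2764, 2419 and 2847 CPM, which overlapped. Of all 24 listed clock genes, all had UMIs, 6 were higher than in the rest of the nuclei in all 4 libraries and 4 were lower in all 4; 21.6% of all genes were higher in all 4, so that share lies near the background.

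**Figure D5:**
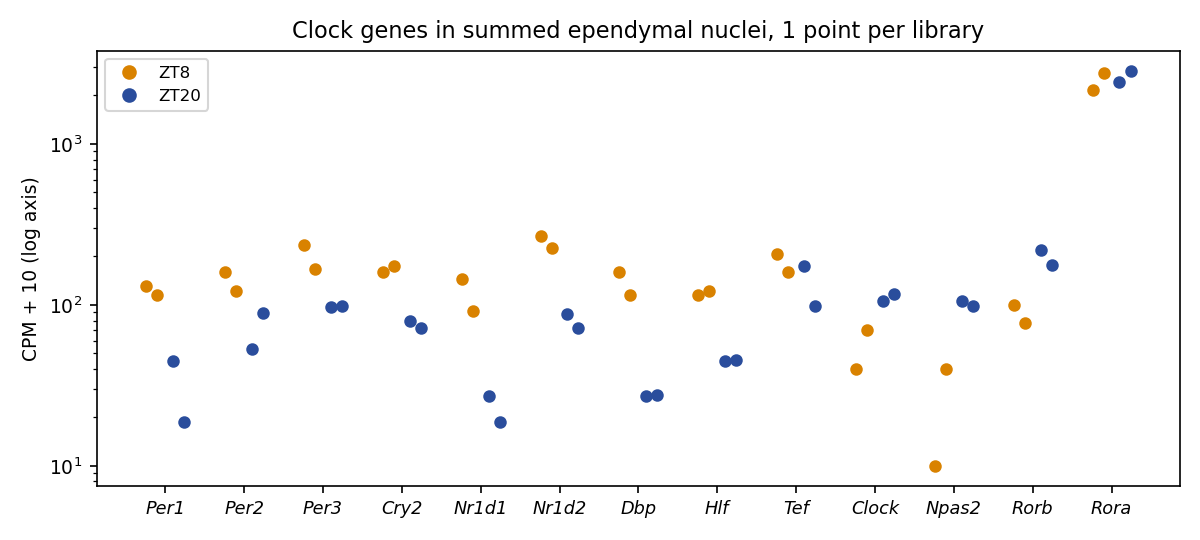
Level of 13 clock genes in summed ependymal nuclei (vertical, CPM + 10, log axis), 1 point per library, orange for ZT8 and blue for ZT20. Per1 to Hlf have both ZT20 points below both ZT8 points, Tef and Rora overlap, and Clock, Npas2 and Rorb have both ZT20 points above.

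Other response lists gave few values. Of 12 clock output genes 3 were tested and 0 passed, with Usp2 at 166, 187, 86.7 and 97.2 CPM (-0.92 ± 0.42, adjusted p = 0.418). Of 12 glucocorticoid-induced genes 3 were tested and 0 passed, with Tsc22d3, below the filter, at 2, 4, 10 and 12 UMIs. No immediate early gene passed the count filter: Fos, Fosl2 and Egr3 had 0 UMIs and the list summed to 70.7 to 332 CPM. With no filter 11 were tested and 0 passed (median -0.18, 7 negative). Chaperone genes had 2 of 9 negative changes and a median of 0.37, positive in all 17 alternative settings (0.30 without the nuclei lacking Adamts20), and 0 passed. Hsp90aa1, the stress-inducible HSP90 chaperone, had 543 and 426 CPM at ZT8 and 936 and 681 at ZT20 (0.80 ± 0.26, adjusted p = 0.187). Its change in astrocytes was 0.40 ± 0.07 (adjusted p = 9.59e-05), and the difference between the classes did not pass (adjusted p = 0.997). Mitochondrially encoded genes had 0 of 12 negative changes with a median of 0.23, and ZT20 replicate 1 held the highest sum. Without that library the median was -0.07, with stricter quality limits it was -0.53, and without the nuclei lacking Adamts20 it was 0.44.

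Transport genes had a median of 0.37, positive in all 17 settings, and 0 of 9 passed. With stricter quality limits 1 of 5 passed, and the median was 1.07. The glutamate transporter gene Slc1a2 had 196 and 194 CPM at ZT8 and 494 and 362 at ZT20 (1.16 ± 0.33, adjusted p = 0.123), with 1008 and 550.4 CPM in the nuclei lacking Adamts20. Aqp4 had a change of 0.72 ± 0.41 (adjusted p = 0.521). Of the regulators 0 of 6 passed, with Stk36 at -1.14 ± 0.43 (adjusted p = 0.286) and Rfx3 at 0.30 ± 0.21 (adjusted p = 0.634). Planar polarity genes gave 0 of 4.

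Whether the time difference differed between classes was tested with the class by time term. Against astrocytes of the same libraries, 17 of 13497 genes (0.126%) passed, 16 with a more positive difference in ependymal nuclei (0.119%) and 1 with a more negative one (0.00741%), around a median of 0.11 for all genes. Col23a1 differed by 2.89 ± 0.55 (adjusted p = 0.000678) and Efna5 by 2.26 ± 0.46 (adjusted p = 0.00202). Without the nuclei lacking Adamts20, 9 more positive and 2 more negative differences passed against astrocytes. Against all other nuclei, 25 of 19718 (0.127%) passed, 15 more positive (0.0761%) and 10 more negative (0.0507%). Without the nuclei lacking Adamts20 the latter counts were 2 and 8, and with at least 12 rule UMIs 5 and 8. Mapk4 differed by 3.23 ± 0.63 (adjusted p = 0.00166), and all other nuclei held it at 77.2 to 81.2 CPM. In DESeq2, 0 genes passed against astrocytes, where 215 had an unadjusted p under 0.05, and 15 passed against all other nuclei. Without ZT8 replicate 1 or without ZT8 replicate 2, 0 passed against all other nuclei, with 437 and 463 at an unadjusted p under 0.05.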

How the data were processed

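Counts of UMIs per gene and barcode in 4 libraries (10x Genomics 3' chemistry) were deposited by the authors, made with Cell Ranger 7.0.0 per the file headers; the submitters' processing notes name Cell Ranger, STAR 2.6 and mm10. The counting of intronic reads and the calling of barcodes are not given in the sources used here.

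Nuclei were filtered and chosen as the report states, with Python 3.11.15 and scanpy 1.11.5. The members and lists were chosen with earlier results of these data known. Scrublet's own threshold marked 1, 0, 1 and 0 nuclei and so did not work; removal by doublet score rank was an alternative. Sums of raw counts over the nuclei of a class in a library were tested with edgeR 4.0.16 (R 4.3.3; filterByExpr, TMM, robust quasi-likelihood, Benjamini-Hochberg over all genes). Class by time terms used the library as a block. CPM were not adjusted for gene length. The test was checked on simulated data of 3108 genes. Positions come from GENCODE M21 (32235 of 32285 genes matched).

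Named were the genes of the rule, up to 8 genes per list by level and 4 by p, the 20 leading genes, each tested clock gene, the 10 or fewer strongest genes per direction in the time test and 5 per direction in each class by time test, together with genes that a count or a promoter singled out; 1 gene higher at ZT20 is not reported here. Alternatives were DESeq2 1.42.0, DESeq2's size factors, no filter, other rule and quality limits, each library left out, the replicate block, and sets of nuclei chosen after seeing the data. Replicate numbers were not taken as pairs: the deviations of same-numbered libraries correlated at 0.115 over 3090 genes, and there were only 2 pairs. The precision is set by 66331 to 133866 UMIs per library.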

Additional observations from a re-analysis of the deposited data

Results flagged for a closer look

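The time difference of ependymal nuclei differed from that of another class for these genes, by the class by time term of edgeR's quasi-likelihood test. Against astrocytes, Flt1, the VEGF receptor gene of endothelium, had 0, 0, 1 and 10 ependymal UMIs in ZT8 replicates 1 and 2 and ZT20 replicates 1 and 2, while astrocytes had 30.3, 129.9, 9.39 and 6.44 CPM (adjusted p = 2.71e-06). Mecom, a zinc finger factor, had 90.5, 89.6, 78.0 and 133 CPM in ependymal nuclei and in astrocytes 42.0 and 76.8 at ZT8 and at most 8.11 at ZT20 (difference 3.71 ± 0.64, adjusted p = 4.83e-05). Ebf1 had 0, 10, 5 and 25 ependymal UMIs and 65.1, 124, 29.9 and 37.3 CPM in astrocytes (adjusted p = 0.00202). For these 3 genes the astrocyte level was lower in both ZT20 libraries. Endothelial markers had 96.2, 327, 23.5 and 16.3 CPM in the same astrocytes and 15.1, 7.47, 52.0 and 88.4 in ependymal nuclei, and mural markers 173, 277, 75.6 and 82.8 in astrocytes and 45.2, 7.47, 26.0 and 17.7 in ependymal nuclei; their part in the differences was not tested. Col23a1 (2.89 ± 0.55, adjusted p = 0.000678) and Efna5 (2.26 ± 0.46, adjusted p = 0.00202) differed through the ependymal values given in the report. Gm48747 was lower in ependymal nuclei at ZT20, at 181, 134, 17.3 and 53.0 CPM, and 106, 89.3, 133 and 146 in astrocytes (-2.65 ± 0.61, adjusted p = 0.0134).

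Against all other nuclei, Mapk4 differed by 3.23 ± 0.63 (adjusted p = 0.00166) and Fstl4 by 2.08 ± 0.44 (adjusted p = 0.00509), with 60.3, 142, 381 and 424 CPM of Fstl4 in ependymal nuclei and 141 to 158 elsewhere. Adamts16 rested on 0, 1, 7 and 15 UMIs (adjusted p = 0.00509). Lhfp had 45.2, 269, 459.5 and 398 CPM (1.89 ± 0.40, adjusted p = 0.00595), and Spon1 30.2, 67.2, 208 and 229.9 (2.47 ± 0.54, adjusted p = 0.00840). Without the nuclei lacking Adamts20, 2 more positive differences passed in place of 15. Nrg1 differed in the negative direction (-2.10 ± 0.40, adjusted p = 0.00103).

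The other 4 of the 5 negative differences with the smallest p were in genes that all other nuclei held at under 5 CPM, with higher levels at ZT20. C230072F16Rik had 1131, 1076, 789 and 839.9 CPM in ependymal nuclei and 0.640, 0.463, 3.77 and 2.58 in the others (-2.82 ± 0.37, adjusted p = 7.19e-10). Crocc2 had 618, 441, 260.1 and 194 CPM against 1.07, 0.811, 2.68 and 2.59 (-2.56 ± 0.48, adjusted p = 0.000980). Wdr63 had 588, 486, 589.6 and 424 CPM against 0.259, 0.391, 2.29 and 1.25 (-2.31 ± 0.48, adjusted p = 0.00509). Ccdc170 had 754, 807, 1127 and 796 CPM against 0.917, 1.09, 4.78 and 3.86 (-1.68 ± 0.35, adjusted p = 0.00509). The other nuclei include the 26 tanycytes, all from ZT20 libraries. They also include nuclei just outside the ependymal rule, namely the 5 that carried Rax and those with 5 to 7 rule UMIs, again all from ZT20 libraries. The 7 rule genes summed to 15.5 and 15.1 CPM in all other nuclei at ZT8 and to 29.2 and 23.2 at ZT20. The part of these nuclei in the differences was not tested.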

How the results depend on the processing

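Between ZT20 and ZT8, 29 genes passed; the number was 11 with the replicate block, 9 with DESeq2, 0 with at least 12 rule UMIs, 62 under stricter quality limits (1000 genes, 1% mitochondrial UMIs), and 58 with Rax nuclei kept. Among alternatives chosen after seeing the data, it was 8 without the nucleus of most UMIs, 0 without nuclei of 8 or more astrocyte marker UMIs (114 at an unadjusted p under 0.05), 7 without tanycyte-marker nuclei and 1 without nuclei lacking Adamts20. Leaving out a library gave 15 (without ZT20 replicate 2) to 51 (without ZT8 replicate 2). The number was within 1.5 times the 29 with DESeq2's size factors, no filter and doublet removal; the oligodendrocyte limit removed no nucleus and so tested nothing. Against astrocytes the 17 became 0 with DESeq2, 3 without tanycyte-marker nuclei, 11 without nuclei lacking Adamts20 and 10 with at least 12 rule UMIs, and 5 to 26 with a library left out. Against all other nuclei the 25 became 15, 5, 10 and 13 under the same settings, and 0 to 4 with a library left out. Direction reversed for Rora and Tef. Rora ran from -0.076 to 0.34 with a library left out, negative without ZT8 replicate 1 and, at -0.016, without ZT20 replicate 2. Tef stood at 0.066 with the stricter quality limits. Col23a1 against astrocytes stood at -0.79 without tanycyte-marker nuclei. Col23a1 is itself on that marker list, so the setting removes all its ependymal UMIs and this value tests nothing. Apart from what the left-out nuclei or libraries remove, the cause was not tested. The share difference kept its sign in every setting, though not the separation of the libraries. In the simulation of this comparison, which assumed 1 fixed dispersion for all genes, 2-fold changes were called in 9.78% of genes.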
